A study of Mus musculus with 3 samples.

Results

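The Notch pathway genes described here are 10 named genes, the receptors Notch1, Notch2 and Notch3, the ligands Jag1 and Dll4, the target genes Hes1, Hey1, Hey2 and Heyl, and the feedback inhibitor Nrarp. They were chosen by name, with earlier results of these data known, so they are not a choice independent of the data. The count tables of 3 lots of mouse fetal ovarian somatic cells (FOSCs) list 18738 genes, and all 10 are listed. Each lot (26, 29 and 30) is a cryopreserved pool of dissociated E12.5 ovaries from CD1 mice, made from the embryos of several pregnant females after the mesonephros was cut away. Cells bound by antibodies to SSEA1 and CD31 were removed with magnets, the flow-through was frozen, and thawed cells were profiled by 10X Genomics scRNA-seq.

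There is 1 condition and no treated group, so the comparisons are between cell classes, and the 3 lots are the replicates (n = 3 lots). A lot pools many embryos, so differences between single embryos or litters are not seen. CD31 is a surface protein of endothelial cells, and the endothelial cells in these lots are those that passed the CD31 depletion. Likewise the germ cells are those that passed the SSEA1 and CD31 depletion.

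Notch receptors are membrane proteins that are cut when a ligand of the Delta or Jagged family on a neighbouring cell binds them. The released intracellular part enters the nucleus, joins the DNA-binding protein RBPJ and turns on target genes, among them the Hes and Hey families of transcriptional repressors and Nrarp, which lowers the activity of the same complex. In blood vessels the pathway is best known for arterial fate and for the choice between tip and stalk cells, and in the fetal gonad for the balance between supporting cells and interstitial progenitors.

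The tables hold 29103 barcodes, of which 28971 passed the filters (200 to 9000 genes and at most 10% mitochondrial UMIs). A UMI, or unique molecular identifier, marks 1 captured RNA molecule. The median kept cell had 8949 UMIs in lot 29, the shallowest lot, and 11595 in lot 30, the deepest. Between 19 and 30 barcodes were shared by any pair of lots, at most 0.351% of the smaller lot. The cells fell into 21 clusters, named from marker lists with all Notch pathway genes kept out of the clustering. The 5 tested classes had at least 50 cells in every lot. In each of them every listed marker of its own cell type had a higher mean over the lots than in the other 4 classes. The same lists had named the clusters, so that is no separate check of these classes. These classes were pre-granulosa-like cells (3290 to 4568 cells per lot), stromal-like cells (1914 to 2358), epithelial-like cells (1626 to 2452), germ-like cells (337 to 748) and endothelial-like cells (87 to 174). At this clustering no cluster qualified as mural-like, that is, as pericytes or vascular smooth muscle. Levels are in CPM, the UMIs of a gene per 1000000 UMIs of the class in a lot, and the reads are tags of transcripts, so no level was divided by gene length and levels are compared between classes, not between genes.

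Dll4 and Nrarp had the largest log2 fold changes of the members, both in endothelial-like cells, and the stretches of DNA before their start sites are shown for that reason. Sequences are from RefSeq (GRCm38.p6), which held promoter entries for 7 of the 10 members (Notch1, Notch2, Notch3, Jag1, Dll4, Hey2 and Nrarp). Each run below is the 250 bases before the start site, 5′ to 3′, with GC boxes (GGGCGG on either strand) in capitals. Dll4 lies at chr2:119325534-119325783 on the plus strand and Nrarp at chr2:25180508-25180757 on the plus strand.
Dll4: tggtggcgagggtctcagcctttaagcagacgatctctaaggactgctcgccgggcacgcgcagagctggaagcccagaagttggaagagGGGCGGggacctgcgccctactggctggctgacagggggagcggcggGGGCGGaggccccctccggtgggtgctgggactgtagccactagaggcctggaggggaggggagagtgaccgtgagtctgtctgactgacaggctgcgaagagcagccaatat
Nrarp: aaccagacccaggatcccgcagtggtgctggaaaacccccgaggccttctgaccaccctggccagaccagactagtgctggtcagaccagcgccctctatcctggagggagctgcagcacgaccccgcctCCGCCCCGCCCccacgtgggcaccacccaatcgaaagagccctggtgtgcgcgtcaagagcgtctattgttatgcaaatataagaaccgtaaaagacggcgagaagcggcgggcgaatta

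The 6 motifs below were searched on both strands, and they were chosen while the sequences were being looked at. The core of the RBPJ site, TGGGAA, was in 21.6% of 32851 promoters and in 1 of the 7 members, Hey2. The longer form CGTGGGAA, which contains that core, was in 0.636% of promoters and again in Hey2. GGGCGG was in 32.7% of promoters and in 6 members, all but Jag1. CACGTG was in 6.02% of promoters and in Nrarp, GGAAGT was in 19.7% and in none of the 7, and CCGGAA was in 12% and in none of the 7. The Hey2 match and, for comparison, both matches of Hes5, a classical Notch target outside the 10 that was picked after its matches were seen, are given with the core in capitals. The Hey2 stretch is chr10:30842965-30843010 on the minus strand, 207 bases before the start site. The Hes5 stretches are chr4:154960677-154960722 and chr4:154960821-154960866 on the plus strand, 226 and 82 bases before it.
Hey2: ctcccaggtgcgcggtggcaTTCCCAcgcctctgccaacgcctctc
Hes5 distal: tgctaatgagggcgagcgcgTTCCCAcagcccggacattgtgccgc
Hes5 proximal: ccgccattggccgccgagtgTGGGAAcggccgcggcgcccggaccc

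Among the receptors, Notch1 had its highest level in endothelial-like cells. Endothelial-like cells held 137 CPM in lot 26, 71.7 in lot 29 and 91.5 in lot 30. Stromal-like cells followed with 13.1, 8.29 and 12.4 CPM and germ-like cells with 9.48, 6.72 and 8.36. The ranges of stromal-like and germ-like cells overlapped, and every endothelial-like sum lay above every sum of the other tested classes. Pre-granulosa-like cells were lowest of the tested classes, at 0.828, 0.877 and 0.833 CPM, just below epithelial-like cells at 1.9, 1.07 and 1.43. Macrophage-like cells, too few to be tested (135 cells in all), held 20.3 ± 2.09 CPM (SD, n = 3 lots) from 40 UMIs, above the stromal-like level.

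Against the mean of the other 4 classes (the mean of their log levels), Notch1 was 4.99 ± 0.155 log2 units (SE) higher in endothelial-like cells (edgeR quasi-likelihood test, adjusted p = 8.6e-14, higher in 3 of 3 lots). It was 0.91 ± 0.157 higher in stromal-like cells (edgeR adjusted p = 0.00014) and 3.64 ± 0.219 lower in pre-granulosa-like cells, a log2 fold change of -3.64 (edgeR adjusted p = 4.6e-10). In germ-like cells the log2 fold change was 0.40 ± 0.180 (edgeR adjusted p = 0.053), and with the lot as a block it was 0.37 (edgeR adjusted p = 0.011). Although endothelial-like cells carried 1.68% of the UMIs of all kept cells, they carried 29.8% of the Notch1 UMIs. The far more numerous stromal-like cells carried 37.95% of the Notch1 UMIs, with 20% of all UMIs.

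Among the tested classes Notch2, the most evenly spread receptor, was highest in stromal-like cells. They held 44.2, 32.9 and 37.9 CPM in lots 26, 29 and 30. Pre-granulosa-like cells came next, at 27.5, 23.5 and 23.6 CPM, and epithelial-like cells after them, at 21, 16.7 and 18.4. These ranges did not overlap, whereas germ-like cells (14.7, 7.31 and 15.1 CPM) and endothelial-like cells (11, 7.11 and 12.1) did overlap. The stromal-like log2 fold change was 1.22 ± 0.121 (edgeR adjusted p = 3.8e-07) and the endothelial-like one -1.05 ± 0.221 (edgeR adjusted p = 0.001). Notch2 was thus the only receptor of the 3 with a call below the other classes in endothelial-like cells. Outside the tested classes, the unnamed cluster 12 held Notch2 at 98.8 ± 12.5 CPM (SD, n = 3 lots), above stromal-like cells, from 227 UMIs.

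Among the tested classes, Notch3 was highest in stromal-like cells. Stromal-like cells held 28.8, 19.98 and 23.8 CPM, against 5.37 to 9.1 CPM over the lots of pre-granulosa-like, epithelial-like and endothelial-like cells, whose ranges overlapped. Germ-like cells were lowest, at 1.17 to 3.83 CPM. Outside the tested classes, the unnamed cluster 12 held Notch3 at 39.8 ± 18.3 CPM (SD, n = 3 lots), from 70 UMIs. Stromal-like cells carried 46.6% of the Notch3 UMIs, with 20% of all UMIs. The stromal-like log2 fold change was 2.06 ± 0.158 (edgeR adjusted p = 1.6e-08, 3 of 3 lots) and the germ-like one -1.87 ± 0.236 (edgeR adjusted p = 1.8e-06).

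The levels of Notch1, Notch2, Notch3, Dll4 and Nrarp are uncertain in 1 respect. In GENCODE's annotation of GRCm38 each has exons that overlap those of a transcript that is not in the tables, 2051 bases for Nrarp and Gm38287 on the opposite strand, and the strand setting of the counting is not given in the sources used here.

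Of the ligands, Dll4, which signals from endothelial tip and arterial cells, was found almost entirely in endothelial-like cells. There it had 135 UMIs in lot 26, 40 in lot 29 and 52 in lot 30, or 45.0, 25.9 and 37.2 CPM. Every sum of the other 4 classes was at 0 to 6 UMIs and at most 0.302 CPM. Endothelial-like cells held 85.3% of the Dll4 UMIs, and the log2 fold change was 8.43 ± 0.265 (edgeR adjusted p = 1e-13). Dll4 passed the low-count filter only through this class, so the endothelial-like call partly follows from the filter, and its fold is set against sums near 0. In the other classes the mean of the others contains endothelial-like cells, so the calls there say no more than that Dll4 was high in this class.

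The share of endothelial-like cells with a Dll4 UMI was 40.2%, 31.8% and 44.8% in lots 26, 29 and 30, at medians of 14132 to 15724 UMIs per cell. With each cell thinned to 4000 UMIs it was 19.1%, 10.3% and 19.0%. Pre-granulosa-like cells should lack Dll4, and their share was at most 0.149% before thinning, at medians of 8300 to 11232 UMIs, and 0.0745% after it. A cell without a UMI can still express the gene at this depth.

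Jag1, a ligand of both endothelial and stromal cells, was low. Stromal-like cells held 6.1, 6.05 and 7.74 CPM and endothelial-like cells 8.67, 1.29 and 5.0, the latter from 26, 2 and 7 UMIs. Those ranges overlapped, and the other tested classes were at 0.947 to 1.91 CPM. Outside the tested classes, Sertoli-like cells held Jag1 at 6.23 ± 4.23 CPM (SD, n = 3 lots). The unnamed clusters 12, 14 and 19 were above stromal-like cells, at 17.8 ± 4.53, 11.9 ± 1.84 and 24.7 ± 8.77 CPM, from 36, 50 and 39 UMIs. The stromal-like log2 fold change was 1.73 ± 0.212 (edgeR adjusted p = 4.2e-06, 3 of 3 lots). The endothelial-like one was 1.54 ± 0.372 (edgeR adjusted p = 0.0031, higher in 2 of 3 lots), and without lot 26 it was 0.73 (edgeR adjusted p = 0.417).

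**Figure D1:**
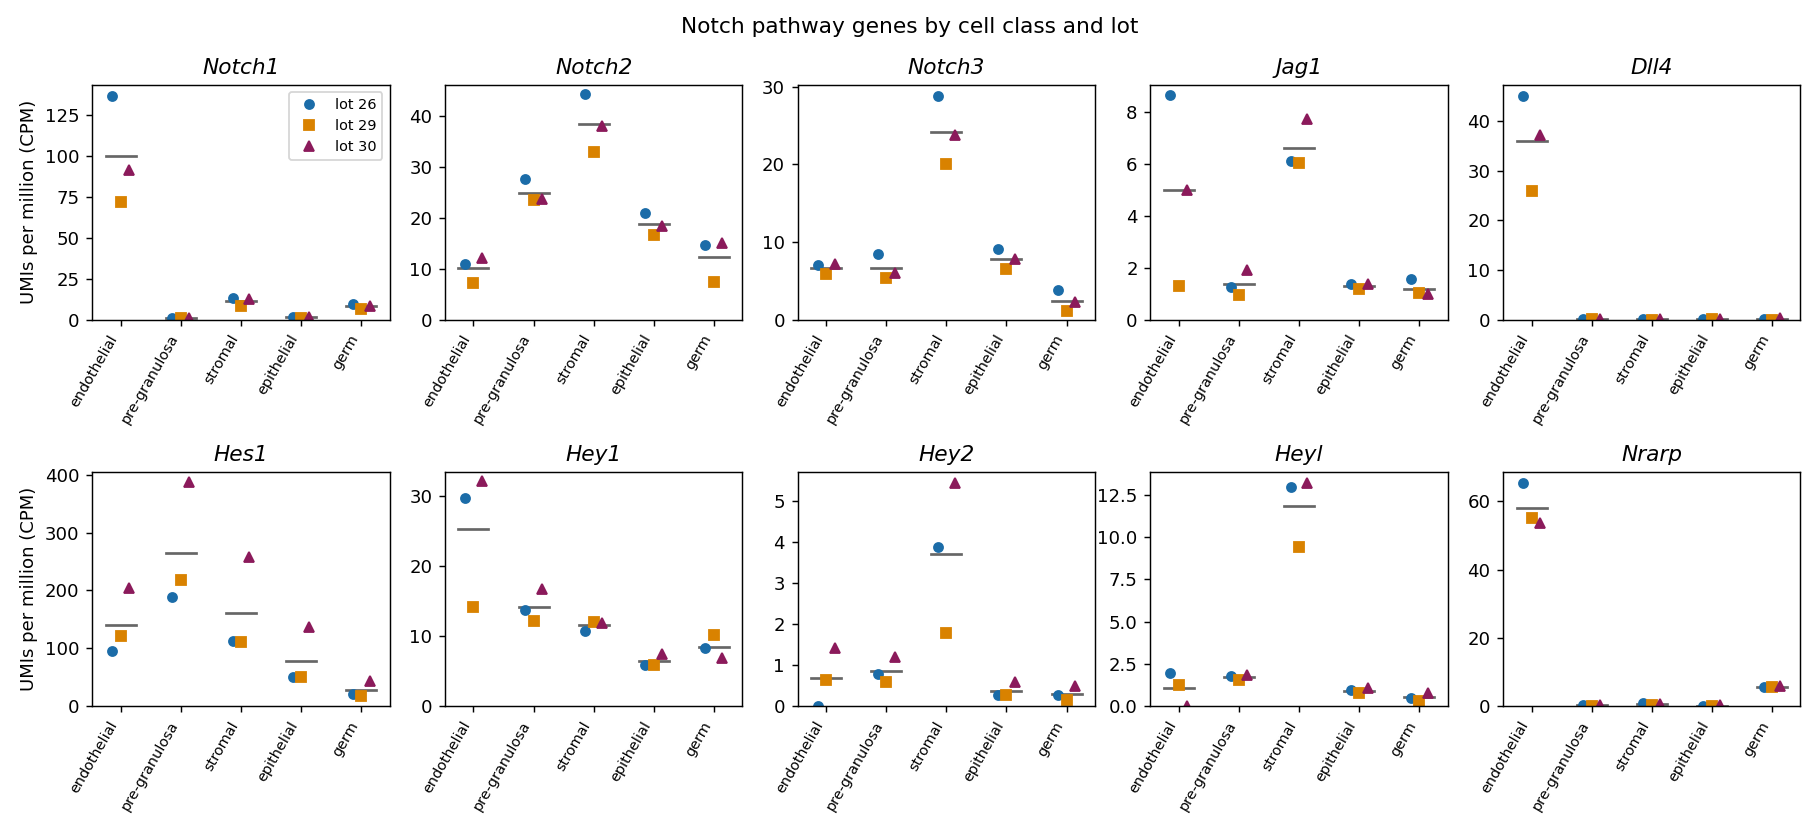
Levels of the 10 Notch pathway genes in CPM (linear axes that start at 0 and differ between genes) in 5 cell classes, with a marker for each lot and a line at the mean of the 3 lots. Notch1, Dll4 and Nrarp stand highest in endothelial-like cells, Notch2, Notch3, Hey2 and Heyl in stromal-like cells, and Hes1 is highest in lot 30 in every class.

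Hes1, a repressor that answers to Notch and to other signals, was highest in pre-granulosa-like cells. They held 188 CPM in lot 26, 218 in lot 29 and 387 in lot 30. Stromal-like cells held 113, 112 and 258 CPM, endothelial-like cells 96.3, 122 and 204, epithelial-like cells 50.3, 50.2 and 137, and germ-like cells 21.7, 18.0 and 44.1. Lot 30 was the highest in all 5 classes, and the ranges of neighbouring classes overlapped except between epithelial-like and germ-like cells. Within each lot pre-granulosa-like cells were above the other 4 classes. The pre-granulosa markers summed to 485, 240 and 423 CPM in germ-like cells and 687, 480 and 832 in endothelial-like cells, against 5263, 4875 and 4598 in pre-granulosa-like cells. The stromal markers summed to 431, 257 and 429 CPM in endothelial-like cells, against 2980 to 3454 in stromal-like cells. The part of RNA from other cells in the levels of Hes1 and the other members was not tested.

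The pre-granulosa-like log2 fold change of Hes1 was 1.71 ± 0.305 (edgeR adjusted p = 0.00013, 3 of 3 lots), and the germ-like one was -2.44 ± 0.413 (edgeR adjusted p = 4.7e-05). The other 3 classes missed the threshold in the model without a lot term and passed it with the lot as a block. In stromal-like cells the log2 fold change was 0.69 ± 0.323 (edgeR adjusted p = 0.086), and blocked 0.67 (edgeR adjusted p = 4e-07). In endothelial-like cells it was 0.53 ± 0.359 (edgeR adjusted p = 0.25), and blocked 0.57 (edgeR adjusted p = 0.00018). In epithelial-like cells it was -0.50 ± 0.349 (edgeR adjusted p = 0.27), and blocked -0.57 (edgeR adjusted p = 9.2e-06). Without lot 30 these 3 values were 0.62, 0.72 and -0.73, each past the threshold (edgeR adjusted p = 0.0029, 0.0022 and 0.0025).

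The gap of lot 30 was present in every tested class and differed in size. Hes1 in lot 30 was 1.9-fold the mean of the other lots in pre-granulosa-like cells, 2.3-fold in stromal-like, 1.86-fold in endothelial-like, 2.72-fold in epithelial-like and 2.23-fold in germ-like cells. A list of 12 stress and immediate early genes, summed, was 1.92-fold, 2.02-fold, 2.45-fold, 2.13-fold and 2.24-fold in the same order. Among genes that reached 10 CPM in all lots of a class, between 0.138% and 1.05% had a fold as large as that of Hes1. Hes1 was highest in lot 30 in 16 of 16 clusters with at least 50 cells in every lot, by 1.61-fold to 3.03-fold. The part of the stress list in the level of Hes1 was not tested.

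Within pre-granulosa-like cells, Hes1 stood at 277, 338 and 544 CPM in cluster 1 and at 167, 176 and 276 in cluster 0. Cluster 2, among whose leading genes were Nfatc2 and the heat shock genes Hspa1a and Hspa1b, drew 2850 of its cells from lot 30, 76 from lot 26 and 151 from lot 29. Without it, Hes1 in lot 30 was 434 CPM, 2.13-fold the mean of the other lots.

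**Figure D2:**
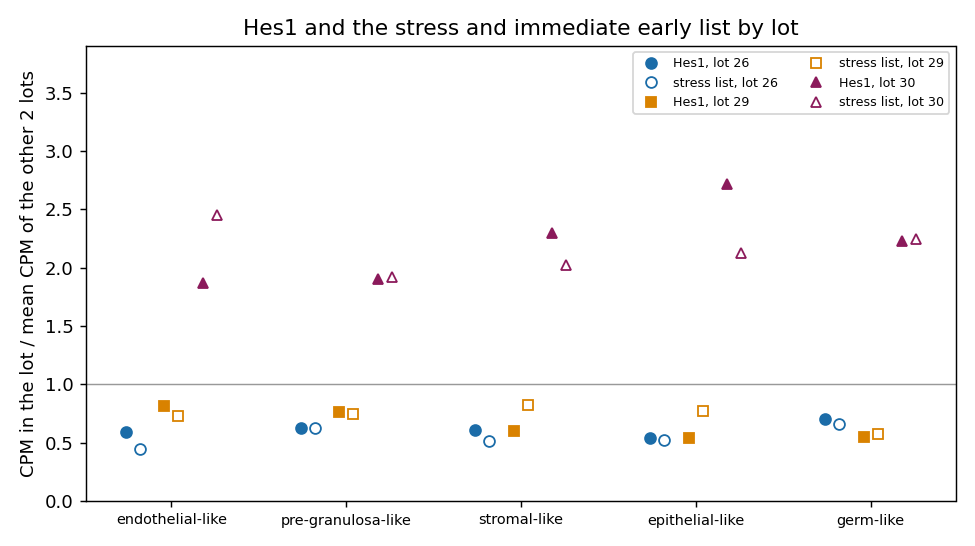
Level of Hes1 (filled) and summed level of the 12 stress and immediate early genes (open) in each lot, divided by the mean level of the other 2 lots, for 5 cell classes (CPM ratios, linear axis from 0, line at 1). Lot 30 is above 1 for both in all 5 classes, with Hes1 between 1.86 and 2.72.

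Hey1, a target of arterial endothelium, was the most even target. Endothelial-like cells held 29.7, 14.2 and 32.2 CPM and pre-granulosa-like cells 13.7, 12.2 and 16.7, with overlapping ranges. Stromal-like cells held 10.8, 12 and 11.8 CPM, germ-like cells 8.32, 10.2 and 6.95, and epithelial-like cells 5.95, 5.86 and 7.47. The endothelial-like log2 fold change was 1.44 ± 0.192 (edgeR adjusted p = 1.2e-05, 3 of 3 lots) and the epithelial-like one -1.07 ± 0.157 (edgeR adjusted p = 4e-05).

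In pre-granulosa-like cells the log2 fold change of Hey1 was 0.39 ± 0.139 (edgeR adjusted p = 0.023). It was 0.43 without lot 26 (edgeR adjusted p = 0.088), 0.28 without lot 30 (edgeR adjusted p = 0.205) and 0.28 without cluster 2 (edgeR adjusted p = 0.089).

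Hey2 and Heyl were both highest in stromal-like cells among the tested classes. Heyl, a target known from vascular smooth muscle, had 12.9, 9.44 and 13.2 CPM in stromal-like cells and at most 2.0 CPM in any sum of the other 4. Outside the tested classes it was at 5.59 ± 0.733 CPM (SD, n = 3 lots) in the unnamed cells, 15.97 ± 9.65 in their cluster 14 (51 UMIs), and reached 3.69 in the Sertoli-like cells of a lot. Hey2 had 3.87, 1.78 and 5.43 CPM in stromal-like cells and 0 to 1.43 in the other tested classes, and reached 4.55 in lot 30 of the unnamed cluster 12. Hey2, known from arterial endothelium, had 3 UMIs over all endothelial-like cells, which is 0, 1 and 2 in the 3 lots, at a floor (3 counts) of 1.0 to 2.14 CPM. The stromal-like log2 fold changes were 3.43 ± 0.172 for Heyl (edgeR adjusted p = 8.6e-11) and 2.85 ± 0.348 for Hey2 (edgeR adjusted p = 3.9e-06). Stromal-like cells held 66.6% of the Heyl UMIs and 58.8% of the Hey2 UMIs, with 20% of all UMIs.

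Markers of mural cells were measured in the same classes. Of 10, 5 were highest in stromal-like cells (Rgs5, Cspg4, Kcnj8, Acta2 and Cnn1). Mcam and Abcc9 were highest in endothelial-like, Tagln in epithelial-like and Myh11 in pre-granulosa-like cells. The 10 mural markers summed to 325, 232 and 292 CPM in stromal-like cells, against 15.5 to 116 CPM in the sums of the other 4 classes. The smooth muscle actin gene Acta2 made up 169 ± 30.1 CPM (SD, n = 3 lots), or 59.6%, of the stromal-like sum, and the pericyte markers Rgs5 and Kcnj8 stood at 18.6 ± 3.26 and 9.44 ± 0.279. Higd1b, a marker of pericytes, was at or near 0, at most 0.146 CPM in any sum. 
A finer clustering (resolution 1.2) set apart 376 cells with Rgs5, Kcnj8 and Abcc9 among their leading genes (146, 86 and 144 in lots 26, 29 and 30). It left them unnamed, and 375 of them were in the stromal-like class. They held Heyl at 26.1, 23.9 and 24.7 CPM, Hey2 at 11.9, 3.78 and 9.64 and Notch3 at 41.5, 22.7 and 22.3. The mural markers summed to 585, 366 and 437 CPM in them. Without these cells, stromal-like cells held Heyl at 11.1 ± 2.04 CPM, Hey2 at 3.39 ± 1.74 and Notch3 at 23.9 ± 4.03 (SD, n = 3 lots). Their log2 fold changes against the other classes were then 3.33 (edgeR adjusted p = 1.6e-10), 2.72 (edgeR adjusted p = 8e-06) and 2.04 (edgeR adjusted p = 1.7e-08). This comparison was chosen after seeing the data.

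The stromal-like clusters differed. Heyl was 17.3 ± 2.98 CPM in cluster 4, a cluster of cycling cells, and 9.42 ± 1.2 in cluster 3 (SD, n = 3 lots). Jag1 was 16 ± 5.75 CPM in cluster 10, led by Lum, and 3.94 ± 0.794 in cluster 3, with no overlap of the lots. Notch1 was 18.6 ± 6.54 CPM in cluster 10 and 8.28 ± 1.65 in cluster 3, while Hey1 ran the other way, at 5.28 ± 1.5 against 14.7 ± 2.11. These are levels of clusters and were given no test.

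Nrarp, the feedback inhibitor, was highest in endothelial-like cells, as were Dll4 and Notch1. Below that class the order differed, since mean Notch1 was higher in stromal-like than in germ-like cells and Nrarp was not. Endothelial-like cells held 65.3, 54.9 and 53.6 CPM, from 196, 85 and 75 UMIs. Germ-like cells were the only other tested class with more than 1 CPM, at 5.6, 5.55 and 5.94. In Sertoli-like cells, which were not tested, Nrarp was at 4.48 ± 2.09 CPM (SD, n = 3 lots), from 30 UMIs. The Rgs5 and Kcnj8 cells of the finer clustering held it at 2.83 ± 1.2 CPM, against 0.591 ± 0.251 in stromal-like cells without them. The endothelial-like log2 fold change was 6.28 ± 0.161 (edgeR adjusted p = 8.9e-15) and the germ-like one 2.00 ± 0.182 (edgeR adjusted p = 3.2e-08), each in 3 of 3 lots. Nrarp was lower in pre-granulosa-like (-2.97 ± 0.238), stromal-like (-1.68 ± 0.231) and epithelial-like cells (-3.63 ± 0.262). With classes of at least 10 cells per lot admitted, the stromal-like value was 0.44, the opposite sign.

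The cells with a Dll4 UMI could be set beside the other endothelial-like cells. After thinning to 4000 UMIs, 58 cells had a Dll4 UMI and 286 had none. Notch4 stood at 114 ± 52.0 CPM in the first and 31.3 ± 13.3 in the second (SD, n = 3 lots), higher in 3 of 3 lots. Notch1 stood at 175 ± 59.0 and 106 ± 43.0, also in 3 of 3 lots, but the general endothelial markers Pecam1 (512 ± 304 against 334 ± 217) and Cdh5 (632 ± 140 against 452 ± 122) did too. Nrarp was at 46.2 ± 41.0 CPM in cells with a Dll4 UMI and 62.4 ± 12.9 in those without, but it was higher in the first in 2 of 3 lots, and lot 29, with 9 such cells, had 0 against 54.5. With so few cells these values are a description and were given no test.

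**Figure D3:**
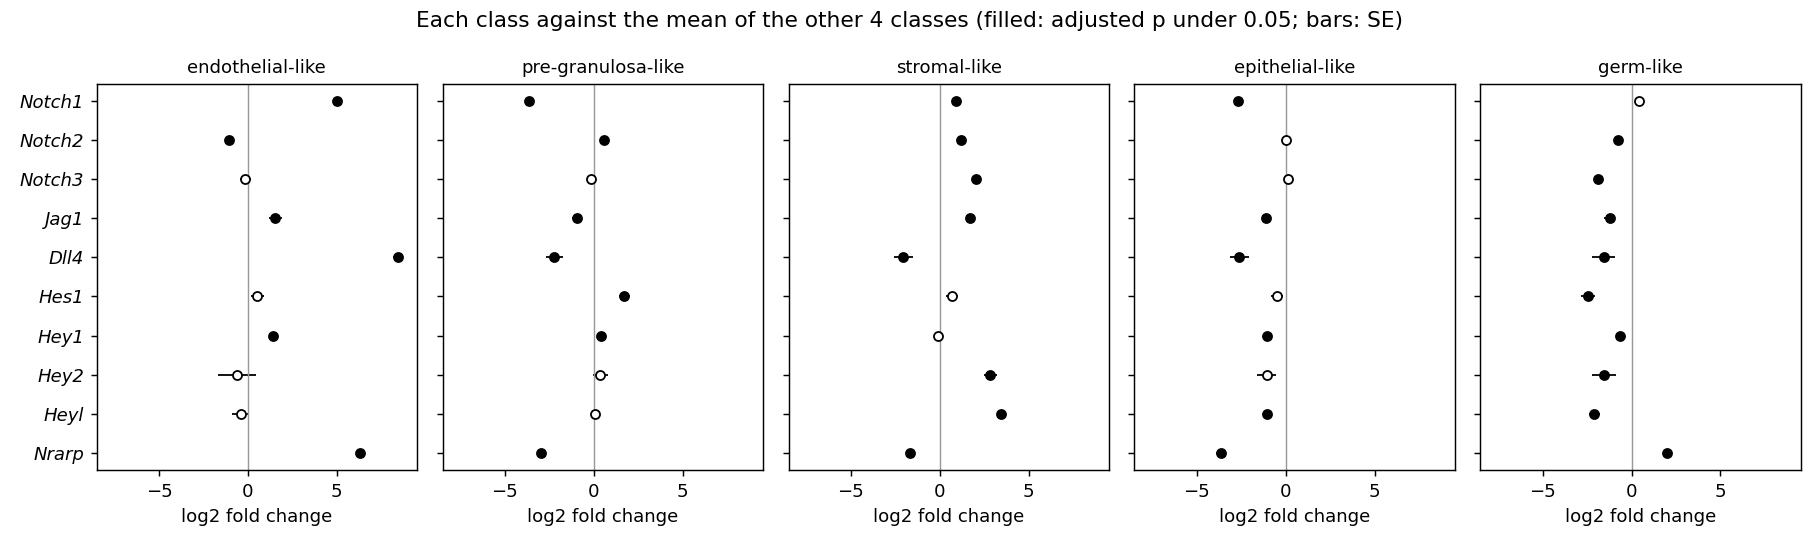
Log2 fold change of each Notch pathway gene in a class against the mean of the other 4 classes (points, with SE as bars, 3 lots per class). Filled points passed an adjusted p of 0.05, and the endothelial-like panel runs from Notch2 at -1.05 to Dll4 at 8.43.

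Counted over the members, 5 of 10 were higher and 1 lower in endothelial-like cells, where 21.5% and 20.4% of all 14994 genes tested were called higher and lower. In stromal-like cells 6 were higher and 2 lower (27.9% and 22.1% of all genes), and in pre-granulosa-like cells 3 and 4 (31.5% and 30.0%). In epithelial-like cells none was higher and 6 were lower (25% and 21.1%), and in germ-like cells 1 was higher and 8 lower (37.4% and 38.1%). The median log2 fold change of the members was 0.99 in endothelial-like, 1.07 in stromal-like, -0.04 in pre-granulosa-like, -1.06 in epithelial-like and -1.40 in germ-like cells. Over all genes tested the medians lay between -0.09 and 0.01. All 10 members passed the low-count filter, but Dll4 was above its level in only 1 class, Hey2 and Nrarp in 2 and Heyl in 3, so these counts partly follow from the filter. The 5 comparisons share their sums, so their counts are not separate evidence.

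The 3 large somatic classes were also compared directly. Of the 10 members, none was higher and 7 were lower in pre-granulosa-like than in stromal-like cells, where 26% and 26.5% of all genes were called. Heyl had the largest gap from the stromal-like level apart from Notch1 (log2 fold change -2.68 ± 0.206 and -3.64 ± 0.239). Hes1 and Hey1 had positive values, 0.82 ± 0.423 (edgeR adjusted p = 0.12) and 0.41 ± 0.176 (edgeR adjusted p = 0.064), and with the lot as a block these were 0.86 (edgeR adjusted p = 1.7e-07) and 0.41 (edgeR adjusted p = 0.0081).

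Between stromal-like and epithelial-like cells 8 members were higher in the first and none lower (18.6% and 16.2% of all genes). The 2 without a call were Dll4 and Hes1, and Hes1 was at 0.95 ± 0.426 (edgeR adjusted p = 0.097), blocked 0.99 (edgeR adjusted p = 7.4e-08). Between pre-granulosa-like and epithelial-like cells 5 were higher and 1 lower (24.9% and 23.9%). Hes1 led with 1.77 ± 0.433 (edgeR adjusted p = 0.0029), and Hey1 followed with 1.16 ± 0.181 (edgeR adjusted p = 5.1e-05). In this last comparison 2 members were called without lot 26 and 3 without lot 30, since Notch1 and Notch2 lost their calls without either lot and Heyl without lot 26, while Hey2 lost its call without any of the 3 lots. Notch3 was at -0.22 (edgeR adjusted p = 0.4), blocked -0.23 (edgeR adjusted p = 0.049). In epithelial-like cells against the other classes Hey2 was at -1.07 (edgeR adjusted p = 0.12), blocked -1.12 (edgeR adjusted p = 0.016).

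The wider pathway list holds 45 further genes, of which 44 were tested. In endothelial-like cells 16 were higher and 7 lower (36.4% and 15.9%, beside 21.5% and 20.4% of all genes). In germ-like cells 14 and 21 were called (31.8% and 47.7%, beside 37.4% and 38.1%), and in pre-granulosa-like cells 14 and 11 (31.8% and 25%, beside 31.5% and 30.0%). In stromal-like cells they were 11 and 10 (25% and 22.7%, beside 27.9% and 22.1%), and in epithelial-like cells 7 and 13 (15.9% and 29.5%, beside 25% and 21.1%). In endothelial-like cells the largest changes at 10 CPM or more were those of Mfng, a glycosyltransferase that modifies Notch receptors (91.4 ± 20.8 CPM, log2 fold change 8.44 ± 0.206), of the endothelial receptor Notch4 (37.7 ± 17.9 CPM, 4.13 ± 0.271), and of Maml2, a coactivator of the nuclear complex (12.97 CPM, 2.50 ± 0.207). Mfng passed the low-count filter only through endothelial-like cells (0.285 CPM over the other classes), so its call partly follows from the filter. Dner too was above the filter level in only 1 class, and Jag2 and Hes5 in 2, so the counts of the wider list share this limit.

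Dlk1, a ligand-like protein without the domain that activates Notch, stood at 324 ± 41.8 CPM in the stromal-like class and at 288 ± 40.5 CPM in the epithelial-like class, with log2 fold changes of 2.15 ± 0.133 and 2.03 ± 0.133. Numbl, which acts in receptor turnover, was 1.10 ± 0.123 higher in stromal-like cells. In pre-granulosa-like cells Dlk1 was lower (-1.39 ± 0.164) and the coactivator Maml3 higher (1.14 ± 0.107). In germ-like cells the ligand Dll3 was at 15.0 ± 2.24 CPM (2.45 ± 0.187), and Maml3 and Maml2 were lower (-2.53 ± 0.150 and -2.13 ± 0.220). Notch4 was lower in epithelial-like cells (-1.30 ± 0.294).

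Outside the tested classes, Sertoli-like cells (90, 287 and 16 cells) held Notch2 at 43.0 ± 7.63 CPM, near the stromal-like level of 38.3 ± 5.62. Hes5, named here after its value was seen, was at 20.1 ± 7.81 CPM in them and 10.9 ± 1.07 in germ-like cells, and below 0.25 CPM in pre-granulosa-like, stromal-like and epithelial-like cells.

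Over the 15 sums of class and lot, the genes with the pattern most like each member were found by Pearson's r of log2(CPM + 1) among 9943 genes. The 3 lots of a class share its cell type, and the sums differ in depth, so r is a description. Dll4 was most like Sox7 and Adgrl4 (r = 0.999 for both), Notch1 most like Eng (0.994) and Rap1gds1 (0.987), and Nrarp most like Gmfg and Upp1 (0.993 for both). Notch3 was most like Maf (0.985) and Ghr (0.983), Heyl most like Srpx2 (0.968) and Ccdc141 (0.962), Hey2 most like Eepd1 (0.909) and Vstm4 (0.888), and Jag1 most like Plcl1 (0.947) and Dkk2 (0.934). Hes1 was most like Rhob (0.962) and Klf6 (0.941), Hey1 most like Pon3 (0.939) and Sgk1 (0.937), and Notch2 most like Efnb1 (0.964) and Igdcc4 (0.954).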

How the data were processed

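Single cells of 3 lots were profiled by 10X Genomics scRNA-seq. The authors deposited raw UMI counts per gene and cell, without normalization, after alignment to GRCm38 by STAR and counting by featureCounts and UMI-tools. The annotation release and strand setting are not given in the sources used here. Kept cells were log-normalized to 10000 and clustered in Seurat 5.3.0 (R 4.3.3) on 2000 variable genes, less 7 pathway genes, with 50 principal components and a resolution of 0.8. Clusters were named from marker lists. Scrublet (scanpy 1.11.5, expected rate 8%) marked 347 to 635 doublets in each lot, which an alternative leaves out.

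UMIs were summed per class and lot and compared by the quasi-likelihood test of edgeR 4.0.16 after filterByExpr and TMM scaling. P-values were adjusted by Benjamini-Hochberg over every gene tested (threshold 0.05), and DESeq2 1.42.0 is an alternative. Nothing in the labels says the lots differ in more than the pool, so p-values measure the spread between these lots. Sums of a lot come from the same pool and are thus paired. Over 30 pairs of sums the median correlation of their deviations from class means was 0.257, and all 30 were over 0.1. The main model has no lot term, so its p-values leave this pairing out, and an alternative has the lot as a block. The study's methods name no differential test. On simulated data for the endothelial-like comparison (13921 genes), 187 of 200 changed genes were recovered. They were 89 of 100 at 2-fold and 98 of 100 at 4-fold, and 6.97% of calls were false. The simulated sums were drawn without correlation within lots and with only 200 changed genes, so these rates may not hold for the real sums. Intervals and floors cover counting error only.

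The members and all lists were chosen with earlier results of these data known. Genes named are the 10 members, per class up to 3 genes of the wider list with the largest change (at least 10 CPM in every lot of the higher side), and the 2 genes most like each member. Motifs and Hes5 were chosen after values or sequences were seen.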

Additional observations from a re-analysis of the deposited data

How the results depend on the processing

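There were 17 alternatives. Leaving out cluster 16, cluster 2 or the Rgs5 and Kcnj8 cells was chosen after seeing the data, and a first choice of the last, by the highest Rgs5 level, took cells of no tested class and was replaced. Over the reported fold changes, 1027 recomputed values kept their direction and side of the threshold, 58 lost their call, 27 gained one and 4 reversed. All 4 reversals came with classes of at least 10 cells admitted, which adds classes with few UMIs to the mean: Nrarp 0.44 in stromal-like, Heyl 1.24 in epithelial-like and 0.26 in germ-like, and Dll4 0.19 in germ-like cells. That setting also called 2 members in pre-granulosa-like, 5 in stromal-like, 1 in epithelial-like and 5 in germ-like cells, against 7, 8, 6 and 9. Leaving out a lot gave 2 to 5 called members for pre-granulosa-like against epithelial-like cells, against 6. Over all comparisons, 15 calls were lost without lot 26, 2 without lot 29 and 11 without lot 30, 18 different ones, of which 4 (Notch1, Notch2, Hey2 and Heyl for pre-granulosa-like against epithelial-like cells) are named beside that comparison. Against the other classes these were Jag1 (endothelial-like, pre-granulosa-like and epithelial-like), Hey1 and Dll4 (pre-granulosa-like), Heyl (epithelial-like), Dll4 (stromal-like), and Dll4, Hey1 and Hey2 (germ-like). Notch2 and Nrarp lost theirs for pre-granulosa-like against stromal-like cells without lot 26 or lot 30, and Hey1 and Nrarp for stromal-like against epithelial-like cells without lot 26. Without the Rgs5 and Kcnj8 cells Nrarp was at -0.75 for pre-granulosa-like against stromal-like cells (edgeR adjusted p = 0.058) and Notch1 at 0.41 in germ-like cells (edgeR adjusted p = 0.046). The replicate block (lot) changed no call beyond the 9 values given beside the results, such as 0.67 for Hes1 in stromal-like cells. Over all member values, those without a call included, 19 uncalled ones changed sign. Low counts limit Dll4, Hey2, Heyl and Nrarp outside their main class.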
